A study of Homo sapiens with 18 samples.

Results

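ERVL elements are the class III endogenous retroviruses of the human genome, and the copies described here are their internal parts and long terminal repeats (LTRs). The members were all annotated repeat copies whose name begins with ERVL, HERVL, MLT2, LTR16 or LTR33. The rule used names and no measured value. It found 28065 of the 2404193 copies listed in the table of the 5-fluorouracil (5-FU) time course and 20297 of the 1996647 copies listed in the Nutlin table. In both tables the members fell into 40 names, of which 10 were internal (their names end in -int), 12 MLT2, 13 LTR16 and 5 LTR33.

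The study measured total RNA of IMR90 cells, a human lung fibroblast line labelled wild type, in 18 samples of 9 groups with 2 libraries each. Untreated cells received fresh medium 12 h before extraction. Nutlin, an inhibitor of the interaction between MDM2 and p53, was given at 5 µM for 6 h, and 5-FU, an antimetabolite that interferes with nucleotide synthesis and RNA, at a dose of 375 µM with durations of 6, 12 and 24 h. Every drug group had a DMSO group of equal duration, with the solvent matched to the drug's volume. No label says whether the 2 libraries of a group came from separate cultures, so p-values measure the spread between these libraries, which may be technical. The tables hold repeats alone, so the cell type label could not be checked against marker genes.

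An intact ERVL provirus has an internal part with gag and pol genes between an LTR pair, and lacks the envelope gene of many other retroviruses. MLT2 LTRs belong to this group: MLT2A1 and MLT2A2 accompany HERVL, the youngest human ERVL, and are known for strong activity in the early human embryo under the factor DUX4. LTR16 and LTR33 are LTRs of older ERVL elements. MaLR repeats (MLT1, MST, THE1) are related non-autonomous elements and served as a comparison list. Most copies in the genome are solitary LTRs or fragments, and many lie in longer transcripts that do not start in the repeat.

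Library totals ran from 2412334 to 6290320 counts in the time course and from 9109885 to 11880265 under Nutlin and its controls. Outside structural RNA they ran from 1618055 to 4164168 in the time course and from 1787724 to 2474410 in the Nutlin table. The Nutlin libraries were thus not deeper in those counts. The most counted 7SL RNA copy of the Nutlin table took 60.4% to 66.3% of all counts there, while the most counted 7SL copy of the time course, a different one, took 2.5% to 8.17%. Levels are therefore not compared between the tables. Members took 1.02% to 1.28% of the counts outside structural RNA in the time course, with the highest share in the second 5-FU 24 h library, and 1.01% to 1.13% of those in the other table. Both untreated columns deposited with the Nutlin data hold the same value at every copy and were counted as 1 sample. The 12 h DMSO libraries were the shallowest pair, so 12 h calls that were lost against DMSO at 6 and 24 h are named. The tables do not list every copy of the genome: 9459 member copies appear only in the time course, 1691 only in the Nutlin table and 18606 in both. The share of copies listed with a count is therefore not compared between names. The rows carry no strand, and positions are those of the hg19 build named in the submitters' processing notes.

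A few copies carried much of the signal. In the time course 10 of the member copies held 15.2% of all member counts and 277 held 50% of them; in the Nutlin table the corresponding values were 16.2% and 180 copies. MLT2B3 was the most counted name, with 52405 of 448287 member counts in the time course and 14014 of 114999 in the Nutlin table. A single copy on chromosome 11 (chr11:33727022-33727343, consensus positions 238 to 554) held 41.5% and 36.3% of them. HERVL74-int, an old internal part with only 89 listed copies, had 18687 counts, of which 55.9% came from the copy at chr10:33179820-33181276. LTR16D1 was the extreme case, with 89.4% of its counts in 1 copy on chromosome 1. HERVL-int, MLT2A1 and ERVL-E-int lay at the other end, with 4.22%, 4.07% and 2.52% in their most counted copy. Each name was therefore tested with all its copies and again without the most counted copy.

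At the level of names, more member names were called higher than lower in every comparison that gave a call. Fold changes are log2 values of drug over its own DMSO group, and a call is an adjusted p under 0.05 over all names or copies tested. Nutlin raised 6 of 40 member names and lowered none, where 12.7% of all 1028 names were called (9.63% higher, 3.11% lower). With 5-FU for 6 h, 0 of 40 were called by edgeR, and 0% of all 1078 names; 6 had an unadjusted p under 0.05 and DESeq2 called 0. The 12 h comparison raised 15 of 40 and lowered none, against 33.8% of all names called (28.5% higher, 5.29% lower). The 24 h comparison raised 9 of 40 and lowered none, against 12.1% called (10.9% higher, 1.21% lower). The median change of the 40 names at 24 h was 0.28, beside 0.13 over all names, and that of the 78 MaLR names 0.18 with 15 higher and 0 lower.

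By role, the calls at 24 h comprised 4 of 10 internal names (median 0.48), 3 of 12 MLT2 names (0.23), 2 of 13 LTR16 names (0.23) and 0 of 5 LTR33 names (0.07). At 12 h they comprised 4 internal names, 4 MLT2 names, 6 LTR16 names and 1 LTR33 name. The 12 h split depended on the scaling. With library size alone 2 names were higher and 13 lower, and with RLE factors 8 and 3. With TMM factors from the filtered copies 7 and 3 were, and with the DMSO libraries of 6 and 24 h as the control 7 and 5. Of all names 46.1%, 35.7%, 35.7% and 41.3% were called in these settings. The same change to library size moved the median of all names at 12 h from 0.17 to -0.40. Without the most counted copy of each name, 2 member names were called higher under Nutlin (2.86% of all names called, 2.35% higher and 0.511% lower), 6 at 12 h (19.1%; 15.4% and 3.71%) and 3 at 24 h (3.52%; 3.23% and 0.285%). At 6 h 0 were called by edgeR (0.0951% of all names, all of it lower), and 3 had an unadjusted p under 0.05. A direct test of the 24 h effect against the 6 h effect called 1 member name, HERVL74-int (1.11% of all names called; 0.835% higher, 0.278% lower).

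**Figure D1:**
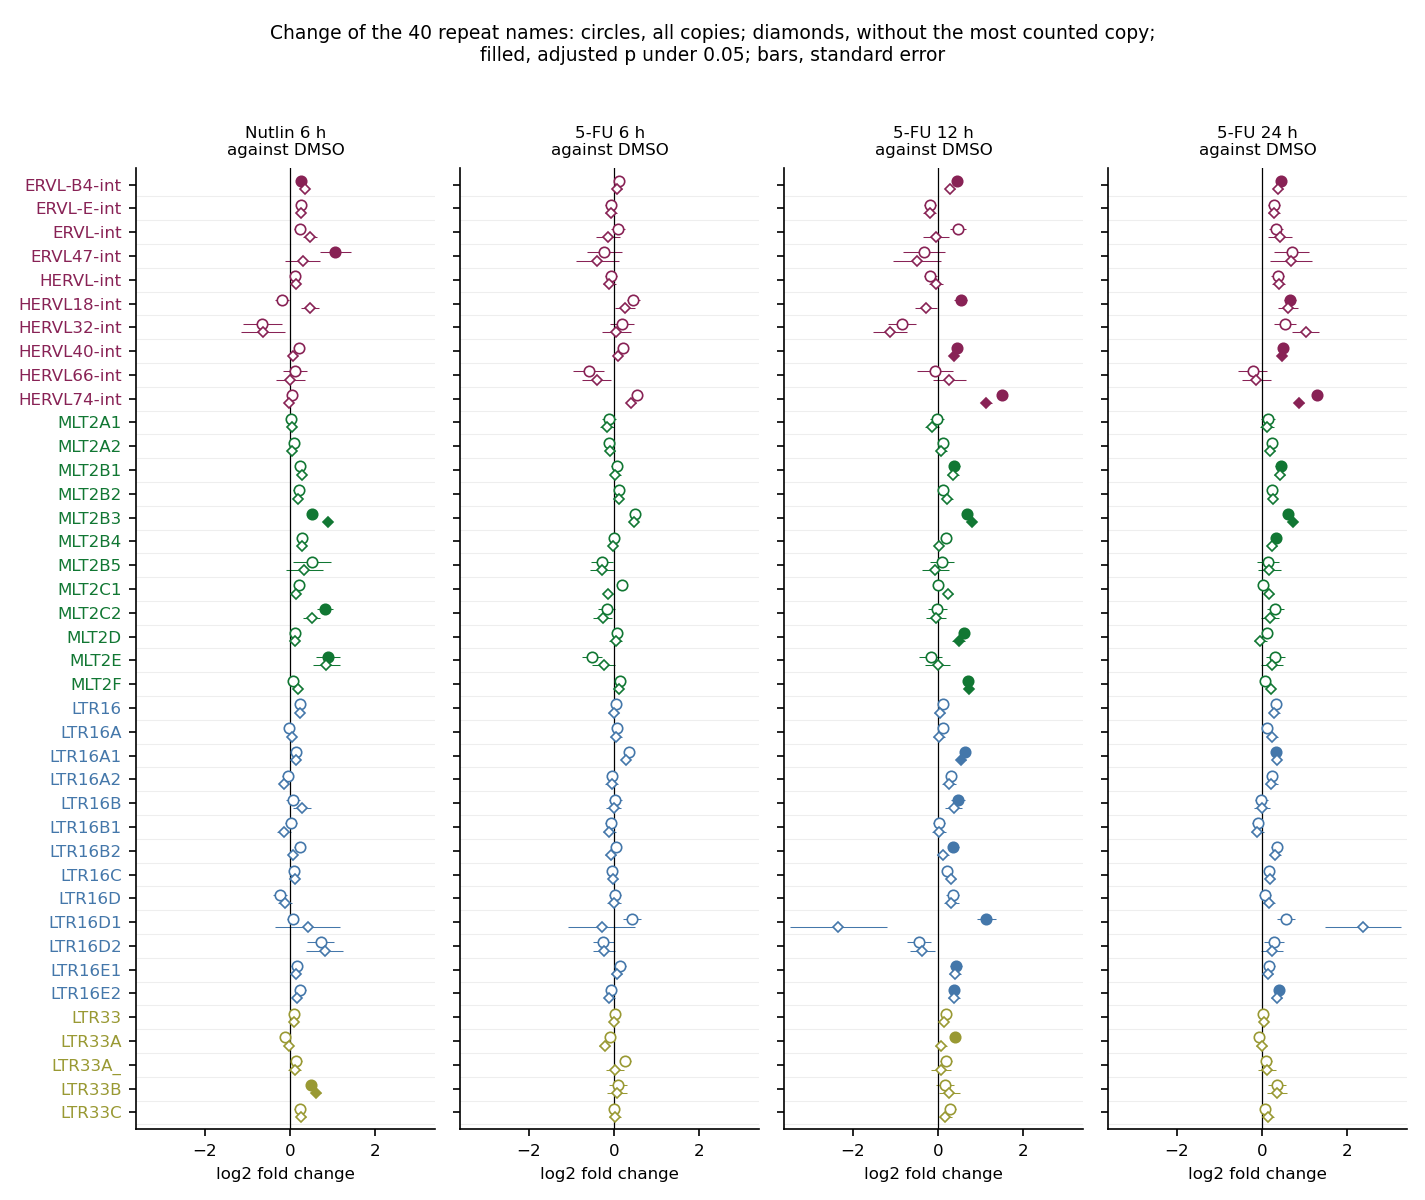
Change of each of the 40 member names under Nutlin and under 5-FU at 6, 12 and 24 h, as log2 fold change against DMSO with its standard error; circles include all copies, diamonds leave out the most counted copy, and filled symbols passed an adjusted p of 0.05. HERVL74-int lies farthest to the right among the filled symbols at 12 and 24 h, MLT2B3 is filled in 3 of the 4 panels, and at 12 h the diamond of LTR16D1 lies at -2.33, where few counts are left without its most counted copy.

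HERVL74-int changed most among the member names under 5-FU. Levels here are CPM, counts scaled to the TMM library size. Single copies have TMM factors from the copies that passed the filter, and names have factors from all copies. Levels and changes of a name and of its single copies are therefore on unlike scales and do not add up. The summed level of HERVL74-int was 325 and 374 CPM at 6 h of 5-FU against 247 and 234 in DMSO. The 12 h values were 567 and 455 against 190 and 169. The 24 h values were 471 and 434 against 194 and 179. The untreated libraries had 258 and 239. Drug and DMSO libraries did not overlap at any of the 3 times. The log2 fold change was 0.54 at 6 h (SE 0.11, adjusted p = 0.0868), 1.51 at 12 h (SE 0.12, adjusted p = 1.74e-06) and 1.28 at 24 h (SE 0.11, adjusted p = 1.98e-05). In these bulk libraries, more RNA per cell and more cells that hold the RNA cannot be told apart. Under Nutlin the level was 91.6 and 83.4 against 79.5 and 90.0, a change of 0.05 with overlapping libraries (adjusted p = 0.84), whose sign turned in 5 of 13 alternatives.

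The rise of HERVL74-int was smaller but remained called without the chromosome 10 copy. The other copies together had 208 and 191 CPM at 12 h against 94.96 and 86.6 (1.13, SE 0.12, adjusted p = 4.8e-05), and 186 and 160 against 103 and 87.7 at 24 h (0.86, SE 0.12, adjusted p = 0.00195). They include a pair of fragments beside the chromosome 10 copy, described next, with 3882 counts, 47.1% of those left. The 86 copies elsewhere in the genome, split off after the values had been seen and described without a test, had 91.7 and 107 CPM at 12 h against 44.7 and 47.0 in DMSO. At 24 h they had 86.6 and 59.8 against 63.2 and 58.8, and the libraries overlapped. Their DMSO level at 6 h was 79.4 and 72.3, so the 12 h DMSO libraries were the lowest of all for these copies. The chromosome 10 copy itself stood at 135 and 121 CPM in untreated cells and at 118 and 119 in DMSO at 6 h. It reached 163 and 183 after 5-FU for 6 h and 358 and 267 after 12 h, where DMSO had 112 and 98.7. After 24 h it stood at 270 and 266, where DMSO had 89.3 and 93.6. Every 5-FU library exceeded every DMSO and untreated library for this copy. Its change was 1.57 (SE 0.20, adjusted p = 4.72e-05) at 12 h and 1.55 (SE 0.20, adjusted p = 5.97e-05) at 24 h.

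**Figure D2:**
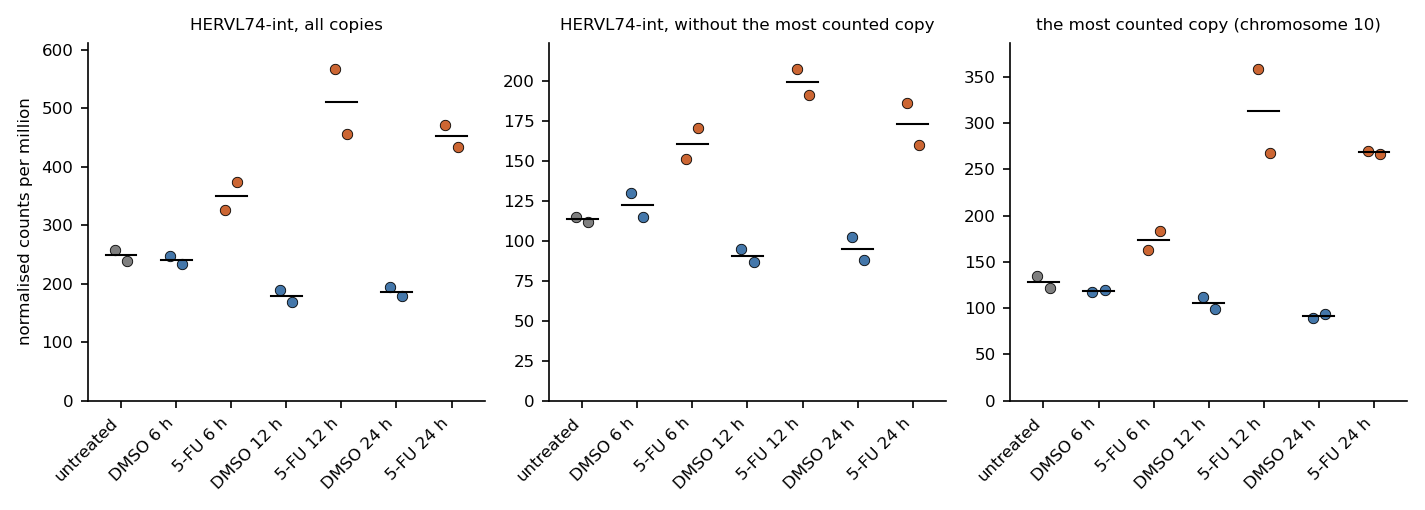
HERVL74-int in the 14 libraries of the 5-FU time course as CPM: all copies, all copies but the most counted one, and the most counted copy alone. The last panel has the scaling factors of single copies and the others those of names, so the panels do not add up exactly. Points are libraries (grey untreated, blue DMSO, orange 5-FU) and bars group means; in each panel the 5-FU libraries at 12 and 24 h lie above all DMSO libraries.

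The chromosome 10 copy is 1 of 3 neighbouring HERVL74-int fragments. From low to high coordinates they cover consensus positions 3500 to 3625 (chr10:33179672-33179797), 1710 to 3328, and 1095 to 1709 (chr10:33181330-33181882), so that consensus positions descend as coordinates rise. The first changed by 0.74 at 12 h (adjusted p = 0.142) and 1.84 at 24 h (adjusted p = 0.00129), and the last by 0.95 (adjusted p = 0.0148) and 1.44 (adjusted p = 0.000635). Repeats of other names beside them were called as well. Within 5 kb, 12 repeats of other names were tested, among them an LTR5A, an MLT1A0 and several L1 fragments. None was called at 6 h, 9 were higher at 12 h and 11 at 24 h, where their changes ran from 1.26 to 2.12. Under Nutlin 0 of the 12 were called. The interval of raised repeats is thus wider than the ERVL sequence, and whether the reads start in it was not tested.

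**Figure D3:**
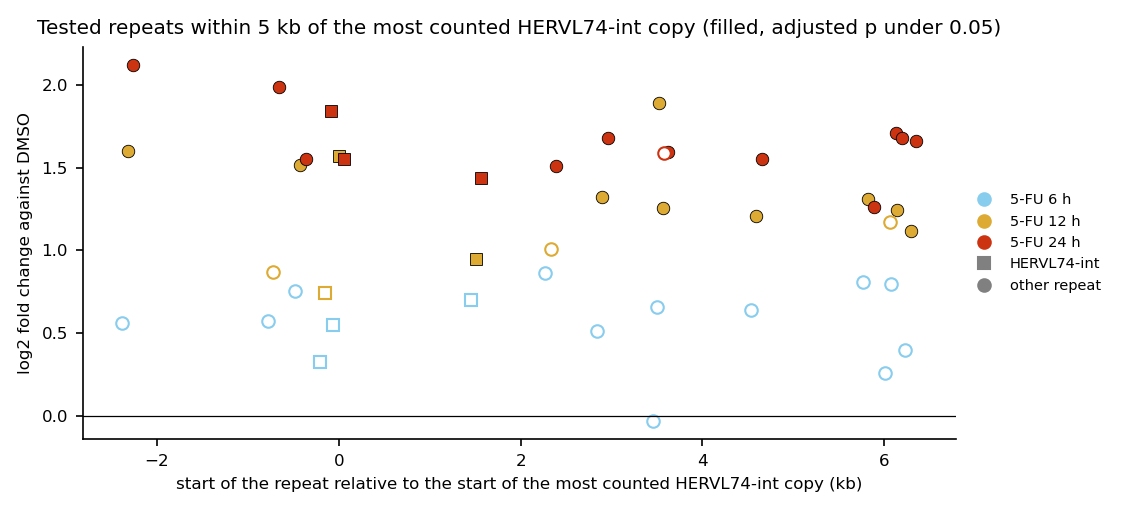
Log2 fold change against DMSO of the repeats tested within 5 kb of the most counted HERVL74-int copy, plotted by the distance of their starts in kb (light blue 6 h, yellow 12 h, red 24 h of 5-FU); squares are the HERVL74-int fragments, circles other repeats, and filled symbols passed an adjusted p of 0.05. All symbols are open at 6 h, and at 24 h the other repeats lie between 1.26 and 2.12 with 11 of 12 filled.

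Among the remaining internal names, ERVL-B4-int rose by 0.44 at 12 h (SE 0.08, adjusted p = 0.000979) and 0.45 at 24 h (SE 0.08, adjusted p = 0.00246). Its levels at 24 h were 531 and 552 CPM against 376 and 417. It lost the 12 h call in 3 of 14 alternatives, with its sign turned in 1 more, and the 24 h call in 2 of 13. Without its most counted copy it was called at neither time (0.28, adjusted p = 0.118; 0.38, adjusted p = 0.0941). Under Nutlin it changed by 0.27 (adjusted p = 0.0442), a call lost in 7 of 13 alternatives. HERVL40-int rose by 0.46 at 12 h (SE 0.08, adjusted p = 0.000862) and 0.50 at 24 h (SE 0.08, adjusted p = 0.00146), with 222 and 222 CPM against 160 and 154 at 24 h. It stayed called without its most counted copy at both times (0.37 and 0.47), calls lost in 7 of 14 and 6 of 13 alternatives. HERVL18-int rose by 0.54 at 12 h (adjusted p = 0.0185) and 0.66 at 24 h (adjusted p = 0.0113). It lost the 12 h call in 6 of 14 alternatives, with its sign turned in 1 more, and the 24 h call in 4 of 13. Without its most counted copy it was not called, and the 12 h value was -0.28 (adjusted p = 0.488). ERVL47-int was called under Nutlin (1.06, SE 0.37, adjusted p = 0.0467) on only 3.35 and 4.86 CPM against 2.23 and 1.63, and lost the call in 8 of 12 alternatives. ERVL-E-int, ERVL-int, HERVL32-int and HERVL66-int were called in no comparison with DMSO.

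HERVL-int, the internal part of the youngest family, was not called as a name at any time. It had 359 and 351 CPM against 430 and 374 at 12 h (-0.18, adjusted p = 0.369). At 24 h it had 419 and 615 against 373 and 430 (0.37, adjusted p = 0.114), and the second 5-FU library stood well above the first. Single copies did change. At 12 h 5 HERVL-int copies were lower and 2 higher; at 24 h 7 were higher and 0 lower. That is 7 of 91 tested HERVL-int copies each time, 7.69%, beside 9.71% and 4.23% of all copies called. Without the second 5-FU 24 h library 3 of the 7 higher copies were called. Of the 5 lower copies, 3 span consensus positions 1 to 5654: chr12:14641585-14647182, chr6:83720694-83726275 and chr4:114845661-114851283. The copy on chromosome 12 had 4.12 and 3.48 CPM after 12 h of 5-FU against 16.3 and 13.003 in DMSO (-1.94, SE 0.35, adjusted p = 0.00119). At 24 h it had 11.6 and 16.1 against 11.6 and 14.5. The copies on chromosomes 6 and 4 fell by 1.94 and 1.71. The lower HERVL-int copy at chr9:70139514-70141956 is the most counted of that name, with 7.64 and 9.29 CPM against 44.5 and 59.7. At 24 h the copy with the smallest p was chr1:94629679-94631707, with 19.5 and 23.7 CPM against 4.49 and 6.71 (1.94, adjusted p = 0.0011), and the adjoining fragment chr1:94628135-94629660 rose with it by 1.61. The difference between the 12 h and 24 h effects was not tested. These HERVL-int copies were listed after their values had been seen.

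At single copies, where the filter left 307 member copies in the Nutlin table and 992 in the time course, the member share of calls lay close to that of all copies. Under Nutlin 30 of 307 were called (26 higher, 4 lower), against 9.57% of all 21328 copies. For 5-FU the numbers were 2 of 992 at 6 h, both higher (0.101% of all 63602; 0.0896% higher, 0.011% lower). At 12 h 83 were called, 59 of them higher and 24 lower (9.71% of all copies; 5.44% higher, 4.27% lower). At 24 h 42 were called, 37 higher and 5 lower (4.23%; 2.42% higher, 1.82% lower). Under Nutlin 5.36% of all copies were higher and 4.21% lower. The median change of member copies was 0.20 under Nutlin beside 0.01 for all copies, and 0.15 at 24 h beside 0.00. At 12 h the median was -0.36 over the 300 internal copies and -0.16 over the 157 LTR33 copies, beside 0.21 over the 320 MLT2 copies, 0.21 over the 215 LTR16 copies and -0.04 over all copies. Over the 10 internal names it was 0.19, but names and single copies have different scaling factors, so these medians are not comparable. With factors from the filtered copies, the 12 h median of the 40 member names moved from 0.21 to -0.03. MLT2 copies made up 17 of the 26 higher calls under Nutlin, 28 of 59 at 12 h and 16 of 37 at 24 h; they were 107 of the 307 and 320 of the 992 member copies tested. Of the 17 under Nutlin 12 are MLT2B3, and 10 of these lie in the tandem arrays described with that name. Leaving out 1 library at a time lost a large part of the higher calls at 12 and 24 h and a smaller part under Nutlin. All of these copies kept their direction. A copy whose drug and DMSO libraries do not overlap could hardly do otherwise, so the kept direction is no support for the calls.

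The copy with the clearest change was a fragment of ERVL-B4-int on chromosome 16 (chr16:88456368-88456738, consensus positions 1789 to 2174). It had 5.26 and 7.17 CPM in untreated cells. After 5-FU for 6 h it had 41.4 and 37.6, against 6.66 and 10.9 in DMSO. The 12 h libraries had 91.1 and 85.1 against 2.59 and 2.68, and the 24 h libraries 106 and 66.9 against 4.68 and 3.27. Every 5-FU library was above every DMSO and untreated library. The log2 change was 2.16 (SE 0.28, adjusted p = 0.000718), 5.05 (SE 0.36, adjusted p = 2.39e-08) and 4.44 (SE 0.31, adjusted p = 2.91e-08). The effect at 24 h exceeded that at 6 h by 2.28 (SE 0.41, adjusted p = 0.0102), the only member copy called in that test (0.385% of all copies were called; 0.0865% higher, 0.299% lower). The 6 h call was lost without the first DMSO 6 h library. Of 10 tested repeats of other names within 5 kb, 5, 9 and 8 were higher at 6, 12 and 24 h.

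MLT2B1 at chr3:178669092-178669549, which covers consensus positions 1 to 520, was the other copy called at 6 h. At 6 h its 5-FU libraries had 9.64 and 12.7 CPM against 2.50 and 1.95 in DMSO. The 12 h values were 8.82 and 12.5 against 1.48 and 1.15, and the 24 h values 12.5 and 12.1 against 1.31 and 1.38. All 6 drug libraries lay above all 6 DMSO libraries. The changes were 2.32 (adjusted p = 0.0192), 2.99 (adjusted p = 0.000712) and 3.17 (adjusted p = 9.67e-05); the 6 h call was lost without any 1 of its 4 libraries. Of 16 tested neighbours, 2, 7 and 8 were higher at the 3 times. A short HERVL40-int fragment at chr4:114817721-114817960 was called from 12 h on, with 13.8 and 9.58 CPM against 1.48 and 3.06 at 12 h (2.36, adjusted p = 0.00355). At 24 h it had 7.88 and 8.36 against 0.94 and 0.86 (3.14, adjusted p = 0.000398), and 9 and 8 of its 10 tested neighbours were higher. Its 12 h call was lost without the first DMSO 12 h library.

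LTR33 at chr10:33039198-33039690 had 74 and 78 counts after 12 h of 5-FU against 1 and 3 in DMSO, a ratio of 29.5 after scaling (95% interval 11.3 to 110, counting error only). At 24 h it had 62 and 54 counts against 9 and 5 (3.13, SE 0.46, adjusted p = 0.000214). Only 1 repeat of another name within 5 kb was tested, an L1PA4 with changes of 0.05 at 12 h and 0.50 at 24 h and no call. A second LTR33 copy, chr1:144607686-144607978, had 39 and 20 counts at 12 h against 0 and 0, at least 7.64-fold higher against a floor of 3 counts per library. DMSO had 61 and 54 counts at 6 h and 24 and 43 at 24 h, so only the 12 h DMSO libraries were at 0 among all groups of the time course. Against the DMSO libraries of the other times the call was lost, and of 12 tested neighbours 0 were higher and 1 lower.

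HERVL18-int at chr1:118358288-118364307 spans consensus positions 1 to 6047. It was called in opposite directions under Nutlin at 6 h and 5-FU at 12 h, which are unlike times. At 6 h of 5-FU it was not called. Under Nutlin it had 1.32 and 1.45 CPM against 4.11 and 10.3 in DMSO (-2.38, SE 0.43, adjusted p = 0.005). After 12 h of 5-FU it had 29.7 and 33.1 against 3.34 and 4.59 (2.98, SE 0.37, adjusted p = 2.61e-05). Both calls held in every alternative that could be fitted. The controls themselves differed widely: untreated libraries had 37.8 and 52.3 CPM in the time course, above every 5-FU library. The 6 h DMSO libraries had 8.74 and 14.5. At 24 h 5-FU had 23.9 and 13.8 against 11.8 and 11.01 (0.71, adjusted p = 0.217). No direct test between the drugs was made, since they lie in separate tables.

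**Figure D4:**
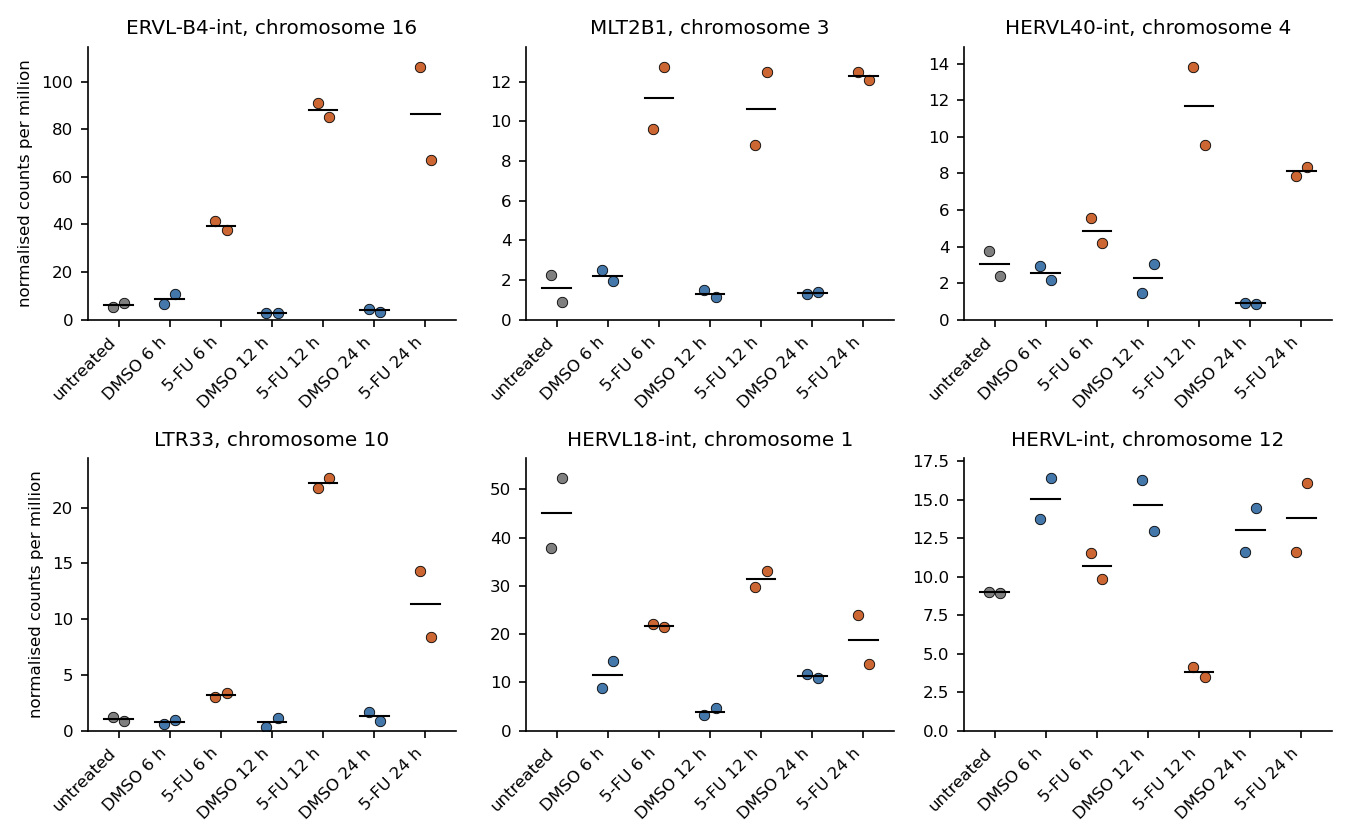
Levels in CPM of 6 single copies in the 14 libraries of the 5-FU time course (grey untreated, blue DMSO, orange 5-FU; points are libraries, bars group means). The copies on chromosomes 16, 3, 4 and 10 are low in untreated and DMSO cells and higher after 5-FU, HERVL18-int on chromosome 1 is highest in untreated cells, and HERVL-int on chromosome 12 is lowest at 12 h of 5-FU.

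Among the MLT2 names, MLT2B3 rose under both drugs. Its level was 353 and 339 CPM under Nutlin against 237 and 248 (0.51, SE 0.09, adjusted p = 8.15e-06). After 5-FU for 6 h it had 1033 and 1131 CPM against 735 and 789 (0.51, adjusted p = 0.096). The 12 h level was 1115 and 1077 against 645 and 728 (0.68, SE 0.11, adjusted p = 0.000419), and the 24 h level 1143 and 884 against 701 and 631 (0.60, SE 0.11, adjusted p = 0.00282). Drug and DMSO libraries did not overlap in any of the 4 comparisons. Without the chromosome 11 copy the changes were 0.89 under Nutlin (adjusted p = 0.000804), 0.81 at 12 h (adjusted p = 7.05e-05) and 0.73 at 24 h (adjusted p = 0.00149). With and without that copy, the Nutlin call held in all 13 alternatives, and the 12 h call was lost in 1 of 14, library size alone. The 24 h call was lost in 3 of 13 alternatives with all copies and in 2 of 13 without the chromosome 11 copy.

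A set of MLT2B3 copies lies in tandem arrays, which were defined after the values had been seen and are described without a test. In 11 arrays on 8 chromosomes (1, 2, 5, 10, 17, 19, 21 and 22), 108 MLT2B3 copies follow each other, and 85 of 97 spacings between neighbours are exactly 93 bases. Of these copies 93 cover the same consensus stretch, positions 3 to 72. In 8 arrays the distance to the outermost listed repeat of the chromosome is 4.03 to 29.4 kb; the other 3 are 192 and 216 kb from it or, for chr2:114367573-114368821, inside the chromosome. The arrays held 25.1% of MLT2B3 counts in the Nutlin table and 23.5% in the time course.

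Summed over the arrays, Nutlin libraries had 106 and 116 CPM, DMSO libraries 41.7 and 40.7 and the untreated sample 53.1. The levels of the MLT2B3 parts given here use the scaling factors of single copies. They do not add up to the levels of the name. After 5-FU for 6 h the arrays had 226 and 238 CPM against 136 and 151 in DMSO, and untreated cells had 141 and 146. The 12 h values were 346 and 349 against 158 and 186, and the 24 h values 326 and 227 against 142 and 106. Every drug library thus exceeded every control library of its table. The chromosome 11 copy had 95.6 and 93.7 CPM under Nutlin, below the 105 and 109 of DMSO, but was not called (-0.18, SE 0.09, adjusted p = 0.265). At 24 h it had 425 and 290 against 291 and 269. The copies in neither class had 123 and 135 CPM under Nutlin against 93.6 and 87.9, and 332 and 342 at 24 h against 256 and 270. Of the MLT2B3 copies called higher, 10 of 12 lay in arrays under Nutlin, 10 of 13 at 12 h and 3 of 7 at 24 h. Tested array copies numbered 20 in the Nutlin table and 39 in the time course. Over all copies 5.36%, 5.44% and 2.42% were higher in these comparisons. The number of tested MLT2B3 copies outside the arrays is not given, so the counts do not rank arrays against other MLT2B3 copies. Array copies resemble each other so closely in span and spacing that the assignment of reads to a single one is uncertain; at 6 h, changes of the 39 tested array copies ran from -7.08 to 6.57.

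**Figure D5:**
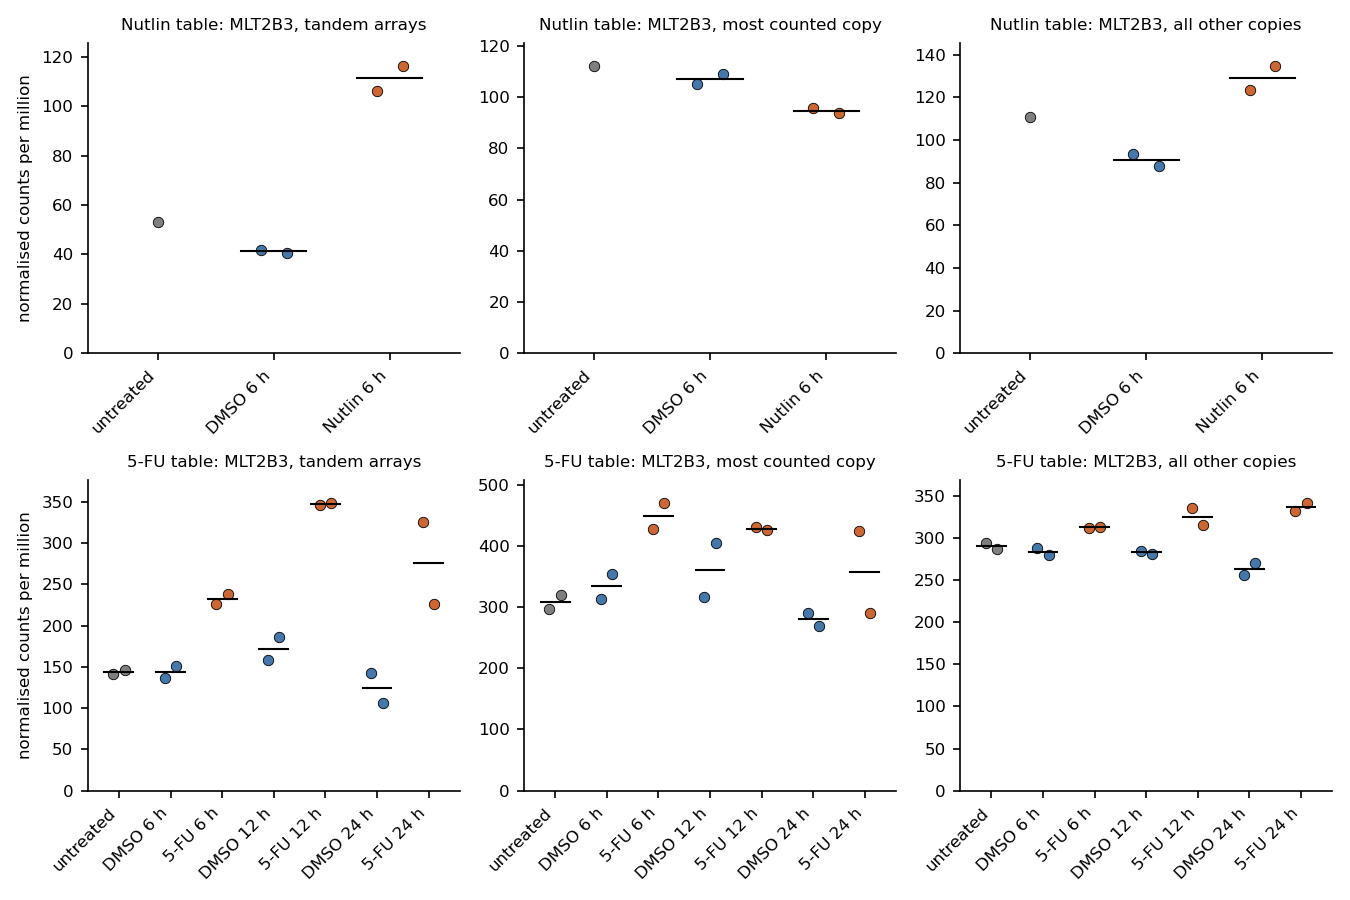
MLT2B3 as CPM by library in the Nutlin table (top) and the 5-FU table (bottom), split into tandem arrays, the most counted copy on chromosome 11 and all other copies; points are libraries (grey untreated, blue DMSO, orange drug) and bars group means. In the arrays all drug libraries lie above all control libraries. Under Nutlin the chromosome 11 copy is lower in both drug libraries than in DMSO, a change that was not called. All panels use the scaling factors of single copies.

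The named array copies under Nutlin were chr21:48112323-48112549 (10.3 and 17.1 CPM against 1.40 and 2.19; 2.90, adjusted p = 0.000154) and chr2:114367573-114367799 (7.67 and 12.4 against 2.38 and 2.71; 1.96, adjusted p = 0.00169). The array copy chr2:114367918-114367985 had 36 and 25 counts against 0 and 1, a ratio of 58.6 with a wide interval (95%, 10.1 to 2351). Near the chromosome 2 array, 5 of 6 tested repeats of other names were higher. Outside the arrays, MLT2B3 at chr8:23048197-23048732 had 8.72 and 10.1 CPM against 1.19 and 1.77 (2.65, SE 0.30, adjusted p = 0.00019), and 7 of 7 tested neighbours were higher. MLT2B4 at chr1:43310098-43310593 rose by 1.67 (12.2 and 12.9 CPM against 4.43 and 3.44; adjusted p = 0.000634). MLT2C2 at chr1:70907456-70907890 rose by 2.00 (4.58 and 4.83 against 1.19 and 1.15; adjusted p = 0.00586), with 5 of 6 tested neighbours higher.

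The names MLT2C2 (0.82, SE 0.18, adjusted p = 0.000852) and MLT2E (0.89, SE 0.29, adjusted p = 0.029) were called under Nutlin as well, at low levels of 15.99 and 17.1 CPM against 10.5 and 8.16 and of 6.80 and 5.10 against 3.61 and 2.83. Neither was called without its most counted copy. Under 5-FU MLT2B1 rose by 0.39 at 12 h (adjusted p = 0.0415) and 0.44 at 24 h (adjusted p = 0.0398). Without its most counted copy it was called at neither time (0.35, adjusted p = 0.11; 0.41, adjusted p = 0.117). Its calls were lost in 10 of 14 and 10 of 13 alternatives, among them the replicate block at both times and, at 12 h, DMSO 6 h and 24 h as the control (0.14, adjusted p = 0.381). MLT2F rose at 12 h (0.71, SE 0.09, adjusted p = 6.55e-05; 247 and 230 CPM against 142 and 150) and kept that size without its most counted copy (0.72). MLT2B4 was called at 24 h (0.32, adjusted p = 0.0203) but not without its most counted copy (0.24, adjusted p = 0.228), and the call was lost in 7 of 13 alternatives. The LTRs of the HERVL family were not called in any comparison: MLT2A1 changed by -0.02 at 12 h and 0.15 at 24 h, and MLT2A2 by 0.12 and 0.23.

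MLT2D was called at 12 h (0.61, adjusted p = 0.000294), but its most counted copy shares consensus span and length with a copy elsewhere. Copies chr4:189661660-189661973 and chr6:153309705-153310018 both cover positions 55 to 364 in 314 bases. In the first DMSO 24 h library 7 counts fell on chromosome 4 and 309 on chromosome 6; in the second, 287 and 8. After 24 h of 5-FU the counts were 248 and 292 on chromosome 4 and 0 and 0 on chromosome 6. The sums of the pair at 24 h were 248 and 292 with 5-FU against 316 and 295 in DMSO, while the chromosome 6 copy alone was called lower. The first DMSO 12 h library had 0 counts on both. Without the chromosome 4 copy MLT2D was still called at 12 h (0.49, adjusted p = 0.0497), a call lost in 9 of 14 alternatives. With DMSO 6 h and 24 h as the control the change of MLT2D at 12 h was -0.05. The LTR16D1 copies chr5:68891782-68892207, chr5:69746920-69747345 and chr5:70327336-70327761, all with positions 205 to 673 in 426 bases, likewise had their counts on different copies in different libraries.

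No LTR16 name was called under Nutlin. At 12 h of 5-FU the 6 higher names were LTR16A1 (0.63, SE 0.10, adjusted p = 0.000355), LTR16B, LTR16B2, LTR16D1, LTR16E1 and LTR16E2, with changes from 0.36 to 1.14. LTR16A1 had 184 and 193 CPM against 125 and 119 and stayed called without its most counted copy (0.55, adjusted p = 0.00206). LTR16B, LTR16B2, LTR16E1 and LTR16E2 each lost the call in 9 to 11 of 14 alternatives, and all 4 lost it against DMSO 6 h and 24 h, where their changes ran from -0.09 to 0.09. The LTR16D1 change of 1.14 is that of its chromosome 1 copy (chr1:28562714-28562777), with 87.6 and 99.9 CPM against 35.2 and 44.7; that call was lost against DMSO 6 h and 24 h. At 24 h LTR16A1 (0.34, adjusted p = 0.033) and LTR16E2 (0.40, adjusted p = 0.0373) were called higher, each losing the call in 8 of 13 alternatives. Without the most counted copy neither was called at 24 h (0.34, adjusted p = 0.0773; 0.34, adjusted p = 0.197). LTR16B2 at chr20:25655313-25655392 was higher under both drugs, with 17.6 and 14.8 CPM against 4.08 and 5.35 at 12 h (1.78, adjusted p = 0.00218) and 6.17 and 8.09 against 3.24 and 4.17 under Nutlin (0.93, adjusted p = 0.0486, lost in 8 of 13 alternatives).

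LTR33 names were called once under each drug. LTR33B rose under Nutlin from 32.4 and 39.8 CPM to 54.7 and 46.9 (0.50, SE 0.12, adjusted p = 0.00358), and was called without its most counted copy (0.62, adjusted p = 0.0144). The call with all copies was lost in 4 of 13 alternatives. LTR33A rose at 12 h (0.39, SE 0.09, adjusted p = 0.00384; 183 and 185 CPM against 142 and 140), but was not called after removal of its most counted copy, where 41.1% of the counts lay. Its call was lost in 7 of 14 alternatives, including DMSO 6 h and 24 h as the control (0.19, adjusted p = 0.0659). LTR33, the most widely listed LTR33 name with 1990 copies, was not called as a name.

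Lower copies were fewer and mostly of low count. At 12 h LTR16C at chr4:177676354-177676789 had 0 and 1 counts against 17 and 18 in DMSO, a ratio of 45.1 in favour of DMSO (95% interval 7.58 to 1832). HERVL-int at chr5:10717793-10720206 had 3 and 3 counts against 33 and 20 (ratio 11.4, 4.90 to 32.4). LTR16C at chr9:91623600-91623872 fell by 1.34, a call lost in 3 of 14 alternatives. MLT2B2 at chr7:45950460-45950821 fell by 2.43, a call lost in 2 of 13. At 24 h ERVL-E-int at chr10:5480954-5482630 had 0 and 0 counts against 8 and 24 (at least 4.85-fold lower), and LTR16A at chr4:95512568-95513015 had 0 and 0 against 11 and 12 (at least 3.56-fold lower). LTR16A at chr21:47743577-47743667 had 1 and 2 counts against 12 and 23. Of its 9 tested neighbours 5 were lower. LTR33 at chr16:86617739-86617938 had 0 and 1 against 6 and 17. Each of these 4 calls at 24 h was lost in at least 2 of 11 alternatives. Under Nutlin the lower copies besides HERVL18-int were LTR16D at chr10:22724468-22724655 (-1.87, adjusted p = 0.0164), HERVL40-int at chr19:9763057-9763446 (-0.75, adjusted p = 0.0379) and LTR16A at chr5:94892032-94892334 (-1.84, adjusted p = 0.0494). In this order, the calls were lost in 1 of 12, 6 of 13 and 7 of 12 alternatives. Another HERVL40-int copy on chromosome 19, chr19:9720492-9720893, was higher (0.80, SE 0.17, adjusted p = 0.0135).

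Repeats of other names near called copies were in many cases called the same way. Of the 59 copies higher at 12 h, 55 had a tested repeat of another name within 5 kb, and for 40 of them at least 1 such repeat was higher. At 24 h the corresponding numbers were 20 of 32, and under Nutlin 12 of 20. For the 24 lower copies at 12 h they were 13 of 22. Such counts grow with the number of neighbours tested. Of the distinct neighbours of higher copies, 81 of 252 were higher at 12 h, 59 of 180 at 24 h and 28 of 52 under Nutlin. Over all copies 5.44%, 2.42% and 5.36% were higher. Near the lower copies at 12 h, 37 of 156 distinct neighbours were lower, beside 4.27% of all copies. Neighbours are no replicates of the copy, and whether they share a transcript with it was not tested.

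The comparisons at 12 and 24 h had 18 higher member copies in common, 30.5% of the 59 and 48.6% of the 37. Over all copies the shares were 24.9% and 56.1%. No lower member copy was shared, where all copies shared 14.5% and 34.0% of their lower calls. Only 302 member copies were tested in both tables, 25 of them higher under Nutlin. These shared 6 with the 35 higher at 12 h of 5-FU, 24.0% and 17.1%, beside 21.4% and 9.9% over all 21020 copies tested in both. They shared 6 with the 24 higher at 24 h, 24.0% and 25.0%, beside 15.3% and 20.05%. The 1 copy called in opposite directions, under Nutlin at 6 h and 5-FU at 12 h, was HERVL18-int on chromosome 1.

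The internal names differed in how often a member LTR lay beside them. LTRs of other names were not searched for. In the time course 36.4% of 6118 internal copies had an MLT2, LTR16 or LTR33 copy within 1 kb. For HERVL-int this was 1495 of 1928, nearly all with MLT2 (1491) and most often with MLT2A1 (940), and these copies held 85.6% of its counts. ERVL-B4-int had such an LTR at 278 of 1108 copies, most often MLT2B4, and ERVL-E-int at 366 of 1933, most often LTR33. HERVL74-int had one at 7 of 89 copies, which held 0.14% of its counts, HERVL40-int at 5 of 405 and HERVL66-int at 0 of 77. HERVL74-int and HERVL40-int thus had few member LTRs beside them, and so did HERVL66-int, HERVL18-int (12 of 299) and ERVL47-int (2 of 45). HERVL74-int and HERVL40-int were the internal names called at 12 and 24 h with and without their most counted copy. HERVL66-int, HERVL18-int and ERVL47-int were not. Without its most counted copy HERVL74-int still held the fragments beside that copy, with 47.1% of the counts left. These shares do not show whether LTRs of other names lie beside the copies, and no test of a relation to the calls was made.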

How the data were processed

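The deposited files are 2 tables of raw counts per annotated repeat copy, with replicates apart. Per the submitters' processing notes the build was hg19 and the tools included Trimmomatic 0.32, cutadapt 1.10, Bowtie2, edgeR and DESeq2; the counting program, repeat annotation and handling of reads that match several copies are not given in the sources used here. The members, lists and rule for named copies were chosen with earlier results of these data known. The rule named, per comparison, up to 5 higher and 5 lower member copies with the smallest p and no overlap, and the most counted copy of each called name.

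Counts were tested as deposited with edgeR 4.0.16 (quasi-likelihood, TMM, filterByExpr, all groups of a table in 1 fit, Benjamini-Hochberg over all copies or names) in R 4.3.3. Names were sums over copies, with factors from all copies. Single copies had factors from the copies that passed the filter. DESeq2 1.42.0, other scalings, filters and left-out libraries were alternatives. Counts were also simulated from the mean levels, with the same assumed spread (dispersion 0.03) for every copy or name. At 24 h, 48% of simulated 4-fold changes were recovered at single copies and 100% at names. Some copies vary more than that between libraries, so these shares hold for the simulated setting alone. Intervals and floors cover counting error only. Replicate numbers were not used to pair the libraries. No hg19 sequence or annotation was used, so no copy is placed in a gene.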

Additional observations from a re-analysis of the deposited data

Results flagged for a closer look

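The change of the ERVL-B4-int fragment on chromosome 16 differed between 2 times of 5-FU: the log2 fold change at 24 h exceeded that at 6 h by 2.28 (SE 0.41, adjusted p = 0.0102 by edgeR). All 4 of the 5-FU libraries concerned were above all 4 DMSO libraries. The call was lost in 4 of 16 alternatives, among them leaving out the second library of DMSO at 6 h, DMSO at 24 h or 5-FU at 6 h. The summed HERVL74-int level also differed between these times, by 0.74 (SE 0.16, adjusted p = 0.036), and lost the call in 9 of 17 alternatives; without its most counted copy the difference was 0.46 (adjusted p = 0.707). Groups of 2 libraries are too small for a check of single outlying libraries.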

How the results depend on the processing

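Counts of called members moved with the tool, the filter and the libraries fitted. At single copies DESeq2 called 14 under Nutlin in place of 30, and 3 in the test of 24 h against 6 h in place of 1. Over all copies it called 4.40% and 3.13%. Without a filter on low counts, 11 copies were called at 6 h and 8 in the 24 h against 6 h test (0.0261% and 0.0348% of all copies). With at least 10 counts in every library, 145 member copies were left in the time course. Of these 1, 42, 27 and 5 were called at 6 h, 12 h, 24 h and in that test. Over all copies the shares under that filter were 0.587%, 34.4%, 22.1% and 5.02%. With only the libraries of the comparison in the fit the same 4 counts were 4, 54, 23 and 0. Over all copies the shares were then 0.190%, 5.01%, 2.38% and 0.193%. At 12 h library size alone gave 86 calls, 37 higher and 49 lower (10.6% of all copies called). The DMSO libraries of 6 and 24 h as control gave 164 (13.9% of all copies).

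For names, DESeq2 called 2 under Nutlin in place of 6 and 5 at 24 h in place of 9, beside 12.6% and 9.93% of all names. At 24 h RLE factors gave 4 (7.42% of all names), library size alone 1 (4.36%), TMM factors from the filtered copies 5 (8.44%) and a fit of only the compared libraries 1 (0.371%). At 6 h that last fit called 5 names (9.0% of all), or 3 without the most counted copies (5.42%), against 0. There HERVL74-int (0.54, adjusted p = 1.66e-05) and MLT2B3 (0.50, adjusted p = 8.19e-06) passed. RLE factors, library size alone and that fit each gave 0 names in the 24 h against 6 h test, against 1. Of all names they called 0.649%, 0.464% and 0.371%. At 12 h library size alone gave 15 names, 2 higher and 13 lower (46.1% of all). Without the most counted copies it gave 12 (1 higher, 11 lower), beside 40.4% of all names. The other DMSO libraries as control then gave 11 (5 higher, 6 lower), beside 32.9% of all names, against 6 higher in the main fit. At 24 h library size alone and the fit of only the compared libraries gave 0 against 3, beside 0.951% and 0.0951% of all names. Under Nutlin TMM factors from the filtered copies gave 1 and only the compared libraries 4, against 2 (1.02% and 3.68% of all names). The cause of these shifts was not tested.

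Leaving out 1 library at a time gave 31 to 40 copies, 1 to 5 names and 1 to 4 names without the most counted copy under Nutlin. For 5-FU it gave 1 copy, 0 and 0 names at 6 h, 31 to 42, 6 to 12 and 2 to 4 at 12 h, and 13 to 39, 4 to 16 and 2 to 16 at 24 h. In the 24 h against 6 h test it gave 0 to 3, 0 to 9 and 0 to 9. The highest name counts of both came without the first 5-FU 24 h library.

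Signs turned for names with library size alone at 12 h: ERVL-B4-int -0.13, HERVL18-int -0.0396, HERVL40-int -0.11, LTR16B -0.11, LTR16B2 -0.21, LTR16E1 -0.15, LTR16E2 -0.19, LTR33A -0.18 and MLT2B1 -0.19. Without the most counted copy HERVL40-int had -0.20, LTR16A1 -0.0261 and MLT2D -0.0873. With the other DMSO libraries as control LTR16E1 had -0.0901 and MLT2D -0.0509, or -0.17 without its most counted copy. HERVL74-int under Nutlin, not called, was -0.0219 with RLE factors, -0.125 with library size alone, -0.0226 with DESeq2, and -0.0734 to 0.140 without 1 library. Without its most counted copy it was -0.18 to 0.0957 without 1 library. MLT2B3 in the 24 h against 6 h test, not called (0.10), was -0.00226 with RLE factors, -0.00147 with DESeq2, -0.0497 with only the compared libraries and -0.0978 to 0.274 without 1 library.

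The main fit did not pair libraries by replicate number. Replicate differences of drug and DMSO correlated at -0.008 under Nutlin and at -0.004, -0.017 and 0.154 at 6, 12 and 24 h of 5-FU at single copies. At names the values were -0.072, 0.022, 0.019 and 0.368. The values at 24 h were the highest, and whether those libraries are paired was not tested. With the replicate block 26 copies, 4 names and 3 names without the most counted copy were called under Nutlin; 2, 0 and 0 at 6 h, 73, 12 and 5 at 12 h, 36, 8 and 3 at 24 h, and 2, 1 and 0 in the 24 h against 6 h test. The median member share of counts, 0.715% in the time course and 0.221% in the Nutlin table, was 1.15% and 1.12% of counts outside structural RNA, and 0.565% and 0.169% without the most counted copies. With a window of 5 kb, 50.8% and 54.5% of internal copies had a member LTR beside them. TMM factors from the other set of copies, and the arrays, were chosen after seeing the data. With 2 libraries a group, the simulation recovered 24% of 2-fold changes at single copies under Nutlin and 8% at 24 h of 5-FU, under its assumed spread.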
